A study of Homo sapiens with 3 samples.

Results

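Stem-loop 1 (SL1) is the 5' hairpin of 7SK, a small nuclear RNA, and was described here as nucleotides 19 to 109, with positions counted from the 5' end of the transcript. All 91 nucleotides of that stretch had an effective depth (reads usable for calling mutations) of at least 1000 in every library, and all were kept, out of 287 nucleotides measured in an RNA of 332. Of the 91, 64 belong to the distal arm (nucleotides 24 to 87) and 27 to the basal stem (nucleotides 19 to 23 on the 5' side and 88 to 109 on the 3' side). The stretch and the elements named within it were taken as given and chosen with earlier results of these data known. The rates of nucleotides before position 19 were not analysed here.

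The RNA was probed in HEK293T cells, a human embryonic kidney line, by RNP-MaP, an assay that records where protein lies close to RNA. In the treated group, cells in buffer received 10 mM SDA dissolved in DMSO for 10 min at 37 °C. SDA carries an NHS ester that reacts with lysines and a diazirine that light activates to bond with whatever is near, here RNA. The control group received 0.5% DMSO without SDA, and both groups were exposed on ice to 365 nm light at 2 J/cm2, so that the control library carries the ultraviolet exposure too. Protein was digested, and the adduct left on the RNA was read as a mutation by reverse transcriptase, with primers specific for 7SK. There were 2 SDA libraries and 1 control library, from 1 cell line.

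7SK RNA is the scaffold of a particle that keeps P-TEFb, the kinase of CDK9 and cyclin T1, inactive and so limits the release of paused RNA polymerase II. The inhibition is carried out by HEXIM proteins, which dock on SL1 through an arginine-rich stretch and then bind P-TEFb. The docking site is a double-stranded pair of GAUC motifs in the distal arm, flanked by bulged uridines. The basal stem lies below that arm and carries the joint to the rest of the RNA.

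The measured stretch is shown with capitals at the 14 nucleotides whose mutation rate rose with SDA beyond the typical nucleotide of the same base, because their placement is the main observation. The second line shows the distal arm alone with the GAUC motifs in capitals, because these are the docking site and can be set against the first line. Both were read 5' to 3' from the deposited tables.
SL1 19 to 109: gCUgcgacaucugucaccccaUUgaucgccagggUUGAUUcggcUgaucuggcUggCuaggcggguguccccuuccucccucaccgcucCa
Distal arm 24 to 87: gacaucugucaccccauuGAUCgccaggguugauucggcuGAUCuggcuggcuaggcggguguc
None of the capitals of the first line falls on a capital of the second, and those at U41 and U63 touch one.

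Read depth over SL1 ran from 200113 to 215337 in SDA replicate 1, from 212843 to 232266 in SDA replicate 2 and from 257829 to 279498 in the control. The mutations counted over the 91 nucleotides were 36632, 38754 and 39956 in the same order, with medians per nucleotide of 264, 269 and 251. The lowest were 7, 7 and 9, all at G19, whose ratio therefore has a standard error of 0.61 on the log2 scale. At the median effective depths of 182608, 194306 and 235967, a rate below 0.00164%, 0.00154% and 0.00127%, that of 3 mutations, could have given none. Median effective depth was about the same share of read depth in all 3 libraries (89.9%, 90.1% and 90.0%). It was lower at G83, U84, G85 and U86 in each of them, down to about 56%, 58% and 60%, and none of these 4 nucleotides is among those that rose beyond their base.

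With SDA the mutation rate was higher by a small factor over most of SL1 and by a large one at a few nucleotides. The median rates were 0.157% and 0.145% for the SDA replicates and 0.114% for the control. The rate was above the control in both SDA libraries at 76 nucleotides (83.5%, against 79.4% of the whole measured RNA) and below it in both at 6. The median ratio of SDA to control was 1.14 in SL1 and 1.13 over the RNA, so that the shift of the typical SL1 nucleotide was near that of the RNA.

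Set against the control alone, 32 SL1 nucleotides (13 U, 10 C, 5 A and 4 G) had a higher rate with SDA, which is 35.2%, against 29.3% over the RNA (edgeR's quasi-likelihood test, threshold 0.05 after Benjamini-Hochberg adjustment over the 287 nucleotides). Fewer passed with DESeq2 (11, against 8.71% over the RNA) and with read depth in place of effective depth (11, against 8.01%). None was lower, against 0.697% over the RNA, and the rate was lower in both SDA libraries at the 6 nucleotides given above, without passing the test. The typical ratio was not the same for each base: the median log2 value over the RNA was 0.49 at adenosines, 0.16 at cytidines, 0.14 at guanosines and 0.16 at uridines. Each nucleotide was therefore also compared with the median of its own base, and the resulting difference is called the centred log2 ratio below. On this scale 14 SL1 nucleotides (15.4%) were above their base, against 9.41% over the RNA, and 2 were below it, against 3.83%. With DESeq2 7 remained above, and with read depth as offset 8, where either gave 4.18% over the RNA. Without adjustment, 26 SL1 nucleotides had an edgeR p under 0.05, against 24.7% over the RNA, in either direction. The p-values measure the spread between the SDA libraries, shared over all nucleotides, and the single control is taken to vary as they do. Nothing in the labels says that these libraries came from separate cultures, so that spread may be technical.

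All 14 were also above the control without centring, with ratios from 1.48 to 3.86, and the largest adjusted p among them was 0.0229 (edgeR, centred). They lie in 7 separate stretches: C20 and U21, U40 and U41, U53 to U58, U63, U72, C75, and C108. Uridine made up 9 of the 14, out of 23 uridines in SL1, cytidine 3 of 33, adenosine 1 of 11 and guanosine 1 of 24. Over the whole RNA, 12 of 59 uridines were above the median of their base, 5 of 90 cytidines, 5 of 60 adenosines and 5 of 78 guanosines. Of the 20 measured nucleotides with the highest centred log2 ratio in the RNA, 10 are in SL1, which makes up 91 of the 287 measured nucleotides.

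**Figure D1:**
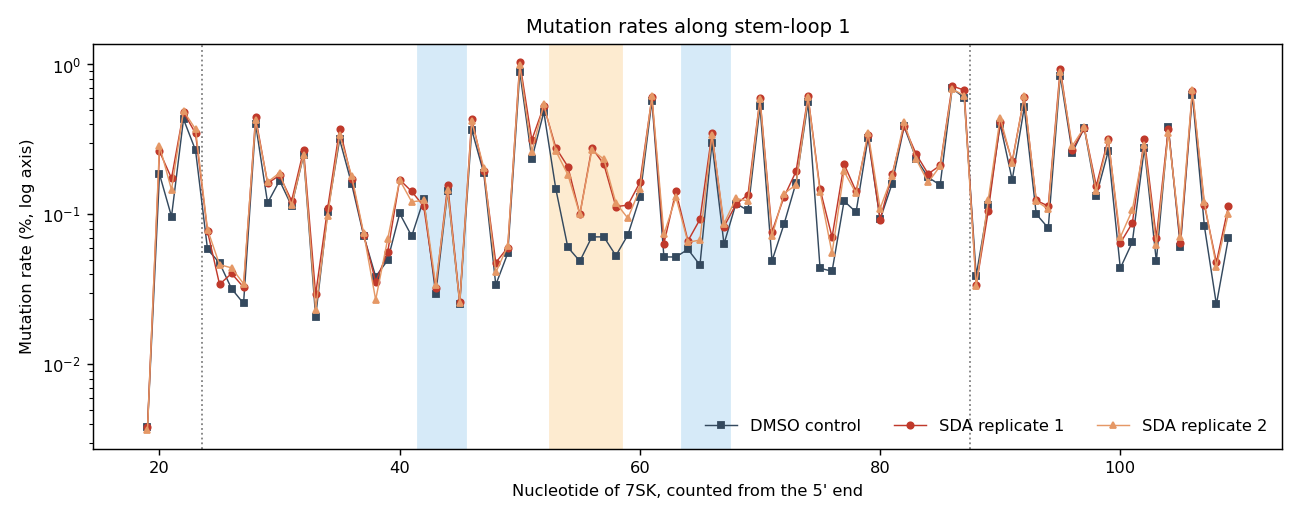
Mutation rate (percent of effective reads, log axis) at each nucleotide of SL1 in SDA replicate 1, SDA replicate 2 and the control, against position along the RNA; blue shading marks the GAUC motifs, orange shading the apical loop, and dotted lines the limits of the distal arm. The 3 libraries follow each other over most of the stretch, and the SDA libraries part from the control in the apical loop and at U63 and C75.

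The apical loop, nucleotides 53 to 58, was the longest stretch of raised nucleotides in SL1: all 6 were above their base, beside 9.41% over the RNA. The loop is the turn that closes the distal arm, and its sequence UUGAUU, in capitals here with 5 nucleotides on either side, is shown because every letter of it rose.
Apical loop with flanks, 48 to 63: cagggUUGAUUcggcu
The last letter of that line, U63, is described with the bulges below.

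A56 rose most in absolute terms. Its rate was 0.278% and 0.268% in SDA replicates 1 and 2 against 0.0708% in the control (exact 95% interval 0.0604% to 0.0825%). Both SDA libraries thus lie far above the upper limit of the control, and they differ from each other by less than the width of that interval. The ratio to the control was 3.86 and the centred log2 ratio 1.46 (edgeR adjusted p = 3.39e-18, standard error (SE) 0.16), lower than the uncentred 1.95 because the median of adenosines is subtracted.

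U54 and U57 stood beside it. At U54 the rate was 0.209% and 0.184% against 0.0604% (0.0507% to 0.0713%), with a centred log2 ratio of 1.54 (edgeR adjusted p = 2.31e-16, SE 0.18). At U57 it was 0.216% and 0.234% against 0.0708%, with a centred log2 ratio of 1.51 (edgeR adjusted p = 2.17e-17, SE 0.17). SDA replicate 1 was the higher of the pair at U54 and the lower at U57, and neither library came near the control. With A56 between them, these are the 3rd, 4th and 5th highest centred ratios of the measured RNA, and their standard errors are larger than the gaps between them.

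The other nucleotides of the loop had lower ratios. U53 went from 0.148% in the control (0.132% to 0.164%) to 0.279% and 0.265%, a centred log2 ratio of 0.72 (edgeR adjusted p = 3.05e-07, SE 0.13). Its call was lost with DESeq2 (adjusted p = 0.0659), whereas those of the other 5 loop nucleotides were not. At G55, the only guanosine of SL1 that rose beyond its base, the rates were 0.100% and 0.100% against 0.0488%, a centred log2 ratio of 0.89 (edgeR adjusted p = 8.82e-05, SE 0.20). U58 was measured at 0.113% and 0.119% against 0.0531%, a centred log2 ratio of 0.97 (edgeR adjusted p = 5.79e-06, SE 0.19). In all 6 positions both SDA libraries were above the control, as they were at 79.4% of the whole measured RNA.

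The SDA replicates gave the loop mean centred log2 ratios of 1.19 and 1.17, that is 1.18 ± 0.012 (SD, n = 2). The neighbours of the loop did not pass on the centred scale. G52, directly 5' of the loop, was at 0.528% and 0.544% against 0.483%, a centred log2 ratio of 0.0074 (edgeR adjusted p = 0.985). C59, directly 3' of it, was at 0.115% and 0.0942% against 0.0730%, a centred log2 ratio of 0.36 that did not pass (edgeR adjusted p = 0.180). Thus the guanosine before the loop was near its base median, while the cytidine after it lay between.

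**Figure D2:**
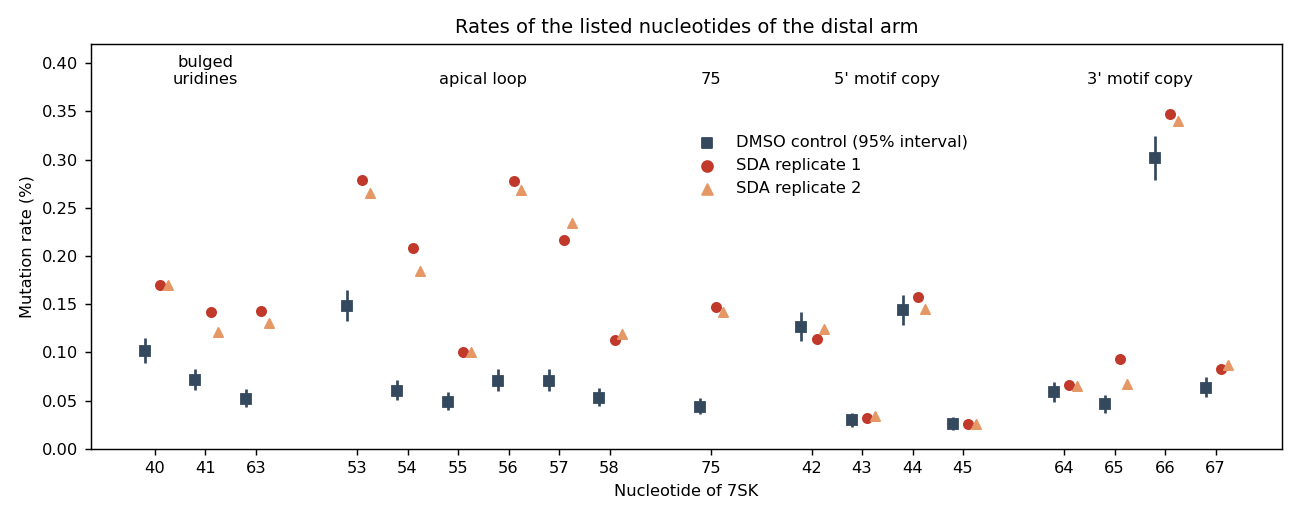
Mutation rate (percent of effective reads) in each of the 3 libraries at the listed nucleotides of the distal arm: the bulged uridines and C75, the apical loop and the 8 GAUC nucleotides; error bars on the control are exact 95% intervals. The SDA points lie clear of the control at U54, A56, U57, U63 and C75, and close to it at G42, A43, U44 and C45.

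The bulged uridines next to the GAUC motifs also rose. U40 and U41 precede the 5' copy of the motif and U63 precedes the 3' copy. The copies are shown with the motif in capitals and up to 4 nucleotides on either side, because the raised uridines touch the capitals.
GAUC 5' copy, 38 to 49: cauuGAUCgcca
GAUC 3' copy, 60 to 71: ggcuGAUCuggc
In each line the letter before the capitals is a uridine that rose with SDA, U41 in the first and U63 in the second.

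U63 was the strongest of them. Its rate was 0.143% and 0.130% against 0.0521% in the control (0.0433% to 0.0621%), a ratio of 2.62 and a centred log2 ratio of 1.23 (edgeR adjusted p = 1.93e-09, SE 0.19). U40 had 0.170% in both SDA libraries against 0.101%, a centred log2 ratio of 0.59 (edgeR adjusted p = 0.00128, SE 0.15). At U41 the rates were 0.142% and 0.121% against 0.0716%, a centred log2 ratio of 0.72 (edgeR adjusted p = 0.000356, SE 0.17). At each of these uridines both SDA libraries were above the control, as they were at 79.4% of the whole measured RNA. U40 passed neither with DESeq2 (adjusted p = 0.247) nor with edgeR on read depth (adjusted p = 0.0537). The same held for U41 (DESeq2 adjusted p = 0.115, edgeR on read depth adjusted p = 0.110), while U63 passed with both. Over the 3 uridines the mean centred log2 ratio was 0.85 ± 0.09 (SD, n = 2).

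C75, on the 3' strand of the distal arm between the motif and the lower helix, had the highest centred ratio in SL1 and the second highest in the measured RNA. Its rate was 0.148% and 0.142% against 0.0438% in the control (0.0356% to 0.0532%), a ratio of 3.31 and a centred log2 ratio of 1.57 (edgeR adjusted p = 1.69e-13, SE 0.20). Both SDA libraries lay well above the upper limit of the control. The neighbours of C75 did not pass on the centred scale. G74 had a centred log2 ratio of -0.012 (edgeR adjusted p = 0.976) and U76 one of 0.43 (edgeR adjusted p = 0.184). Without centring U76 was above the control (log2 ratio 0.58, edgeR adjusted p = 0.0237), though not with DESeq2 (adjusted p = 0.263). U72, also on this strand, was at 0.131% and 0.138% against 0.0862%, a centred log2 ratio of 0.49 (edgeR adjusted p = 0.0229, SE 0.16), and of the 14 it was the one that lost its call under the most alternatives, 4 of 11: DESeq2, read depth, TMM scaling and centring each library by itself.

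A77, 3' of C75, shows what centring does. Its rate was 0.217% and 0.194% against 0.123%, above the control without centring (log2 ratio 0.74, edgeR adjusted p = 2.33e-06) and not above its base with it (0.25, edgeR adjusted p = 0.260). The median ratio of adenosines in the RNA was 1.40, and that of A77 was 1.67. It passed with SDA replicate 1 alone (0.34, exact binomial test, adjusted p = 0.0131) and when the median of all bases was the centre (0.56, edgeR adjusted p = 0.000718).

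The GAUC motifs themselves were close to the typical nucleotide of their bases. None of the 8 passed in edgeR's centred fit in either direction, beside 9.41% above and 3.83% below over the RNA. The count was also 0 with DESeq2, beside 4.18% above over the RNA. It was 0 for unadjusted edgeR p-values under 0.05, beside 24.7% over the RNA in either direction. At such shares few calls would fall among 8 nucleotides, so these counts alone show little. In the 5' copy the rates were 0.113%, 0.124% and 0.126% (SDA replicate 1, SDA replicate 2, control) at G42, and 0.0323%, 0.0339% and 0.0294% at A43. They were 0.157%, 0.145% and 0.144% at U44, and 0.0261%, 0.0256% and 0.0254% at C45. The 3 libraries thus nearly coincide over the 5' copy, and at G42 both SDA libraries were below the control.

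In the 3' copy the rates were 0.0666%, 0.0652% and 0.0585% at G64, and 0.0927%, 0.0675% and 0.0460% at A65. They were 0.347%, 0.340% and 0.301% at U66, and 0.0829%, 0.0867% and 0.0635% at C67. Here both SDA libraries were above the control at every position, against 3 of 4 in the 5' copy and 79.4% of the whole measured RNA. A65 was the only motif nucleotide above the control without centring in edgeR (log2 ratio 0.79, edgeR adjusted p = 0.000963), and with centring it was not (0.31, edgeR adjusted p = 0.401) unless the median of all bases was the centre (0.62, edgeR adjusted p = 0.0198). The uncentred call was lost with DESeq2 (adjusted p = 0.0724), with edgeR on read depth (adjusted p = 0.131) and with TMM scaling (edgeR adjusted p = 0.0502), which left 0 motif nucleotides above the control. In exact binomial tests of single libraries without centring, A65 and C67 passed with SDA replicate 2 (35.5% over the RNA), and A65, U66 and C67 with SDA replicate 1 (43.6%). The size of its ratio depended on the library: the centred log2 ratio was 0.54 with SDA replicate 1 alone and 0.09 with SDA replicate 2 alone (exact binomial tests, adjusted p = 0.0177 and 0.845).

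Over the motifs the lowest centred log2 ratio was -0.32, at A43, and the highest 0.31, at A65. Their standard errors were 0.10 to 0.24, and their mean was -0.019 ± 0.036 (SD, n = 2). Every motif value was thus below the 0.72 of U53, the lowest in the apical loop. Because the copies have the same 4 letters, they can be compared base by base without centring. The log2 ratio of the 3' copy exceeded that of the 5' copy by 0.34 and 0.18 at G (SDA replicates 1 and 2), by 0.87 and 0.35 at A, by 0.07 and 0.16 at U, and by 0.35 and 0.44 at C. The sign was the same at all 4 letters in both libraries. These differences have no test, since both libraries are set against the same control.

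**Figure D3:**
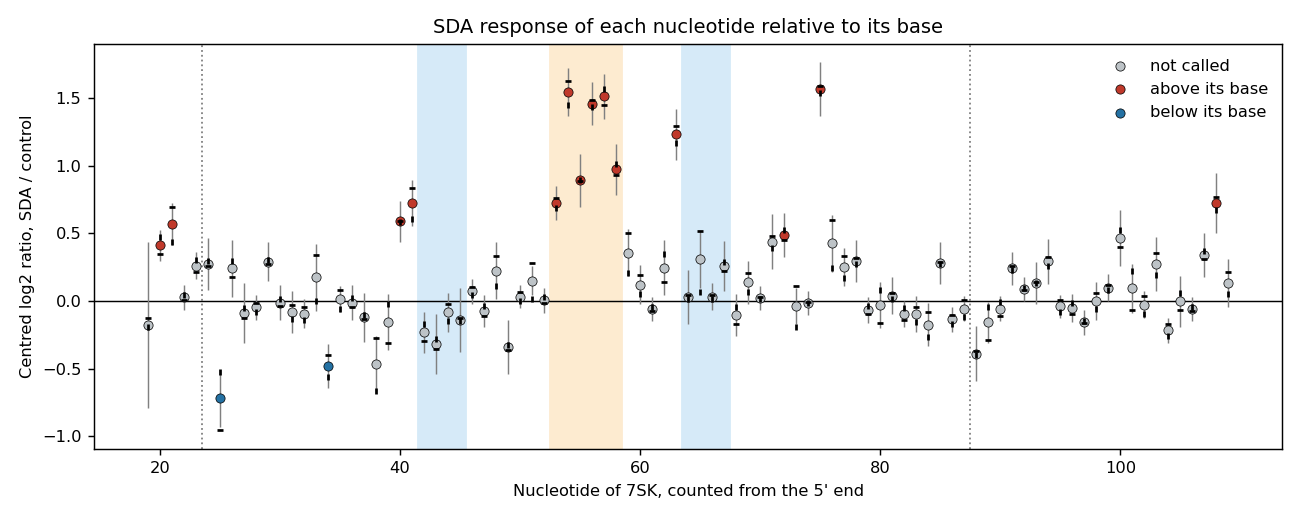
Centred log2 ratio of SDA to control at each nucleotide of SL1 (edgeR; bars are standard errors, horizontal ticks SDA replicate 1, vertical ticks SDA replicate 2), against position along the RNA; blue shading marks the GAUC motifs, orange shading the apical loop, dotted lines the limits of the distal arm. The apical loop lies at 0.72 to 1.54 and C75 at 1.57, while the 8 GAUC nucleotides lie between -0.32 and 0.31.

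U30, in the lower helix of the distal arm and known from crosslinking work as a contact of HEXIM, was at its base median. Its rate was 0.182% and 0.189% against 0.168%, a centred log2 ratio of -0.011 (edgeR adjusted p = 0.985, SE 0.13). Both SDA libraries lie slightly above the control value, and the uncentred difference did not pass either (log2 ratio 0.14, edgeR adjusted p = 0.401).

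The nucleotides called below their base were A25 and A34, both on the 5' strand of the distal arm. A25 had 0.0342% and 0.0463% against 0.0474%, a centred log2 ratio of -0.72 (edgeR adjusted p = 0.00515, SE 0.21). The low value came mainly from SDA replicate 1, and with SDA replicate 2 alone the call was lost (-0.50, exact binomial test, adjusted p = 0.0710). At A34 the rates were 0.110% and 0.0983% against 0.103%, with the control between the SDA libraries, and a centred log2 ratio of -0.48 (edgeR adjusted p = 0.0231, SE 0.16). Neither was below the control without centring (log2 ratios -0.23 and 0.0067, edgeR adjusted p = 0.401 and 0.980), and neither passed with DESeq2, with read depth as offset or with the median of all bases as the centre. Exact binomial tests of single libraries called more: A34, C38, U86 and G104 with SDA replicate 2 (8.01% over the RNA), and A25, A34, C89, C97 and G104 with SDA replicate 1 (9.06%). A25 and A34 were thus low beside other adenosines, and neither passed as a fall below the control.

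The distal arm held 11 of the 14 raised nucleotides, 17.2% of its 64, and the basal stem 3, 11.1% of its 27, beside 9.41% over the RNA. With DESeq2 the distal arm kept 7 and the basal stem 0, and with read depth as offset 8 and 0. Without centring the order was the reverse. By edgeR 20 nucleotides of the distal arm (31.25%) and 12 of the basal stem (44.4%) were above the control, beside 29.3% over the RNA. The mean centred log2 ratio of the distal arm exceeded that of the basal stem by 0.11 in SDA replicate 1 and by 0.06 in SDA replicate 2, that is by 0.083 ± 0.031 (SD, n = 2), while the medians differed by -0.017 ± 0.032. The excess was thus seen in the means and not in the medians. The apical loop, the bulged uridines and C75 were listed with earlier results known, and all were above their base. Leaving them out had to lower the mean of the arm, while the basal stem kept its 3 raised nucleotides. The remaining 54 nucleotides of the arm (1 above their base, U72, and 2 below) then had a mean that differed from the basal stem by -0.089 ± 0.030. A single control does not allow an exact test of this difference below p = 0.333.

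The strands of the distal arm had unlike values, for which there is no test. The 5' strand, 29 nucleotides from 24 to 52, held 2 raised nucleotides, U40 and U41, and both of the lowered ones, with a mean centred log2 ratio of -0.024 ± 0.019 (SD, n = 2). The 3' strand, 29 nucleotides from 59 to 87, held 3, U63, U72 and C75, and none lowered, with a mean of 0.19 ± 0.047. Raised nucleotides made up 6.90% of the 5' strand and 10.3% of the 3' strand, beside 9.41% over the RNA, where 3.83% were lowered. The 5' strand was lower by 0.24 and 0.20 in the SDA replicates on the means, and by 0.14 and 0.09 on the medians. The GAUC copies, which are part of these strands, had the same order.

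In the basal stem, the raised nucleotides were C20 and U21 on the 5' side and C108 on the 3' side. C20 had rates of 0.264% and 0.288% against 0.186%, a centred log2 ratio of 0.41 (edgeR adjusted p = 0.00387, SE 0.12). U21 had 0.174% and 0.146% against 0.0969%, a centred log2 ratio of 0.57 (edgeR adjusted p = 0.00311, SE 0.16). C108, near the 3' end of the stretch, had 0.0478% and 0.0449% against 0.0251%, from 89, 93 and 63 mutations, and a centred log2 ratio of 0.72 (edgeR adjusted p = 0.00998, SE 0.22). In each case both SDA libraries were above the control, as they were at 79.4% of the whole measured RNA. All 3 calls were lost with DESeq2, with read depth as offset and with each library centred by itself. With SDA replicate 2 alone the basal stem held 6 raised nucleotides by exact binomial tests (12.5% over the RNA), C23, C100 and C107 beside these, and with SDA replicate 1 alone the same 3 (15% over the RNA).

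The 3' side of the basal stem, 22 nucleotides rich in C and U, is shown because it makes up most of the stem and holds a single raised nucleotide, in capitals.
Basal stem, 3' side, 88 to 109: cccuuccucccucaccgcucCa
Its centred log2 ratios ran from -0.39 to 0.72 with a mean of 0.08, and its rates from 0.0336% to 0.939% in SDA replicate 1, from 0.0331% to 0.885% in SDA replicate 2 and from 0.0251% to 0.840% in the control. The 5 nucleotides of the 5' side held 2 of the 3 raised ones.

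The nucleotides that mutated most without SDA were others than those that rose. The 5 highest control rates in SL1 were at G50 (0.894%), U95 (0.840%), U86 (0.692%), U106 (0.628%) and C87 (0.602%). With SDA these became 1.03% and 0.988% at G50 and 0.939% and 0.885% at U95 in replicates 1 and 2. At U86 they were 0.718% and 0.686%, at U106 0.664% and 0.677%, and at C87 0.675% and 0.621%. Their centred log2 ratios lay between -0.13 and 0.03, and none was above the control or its base by edgeR.

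As a difference of rates, the largest rises were at A56, U57, U54, U53 and G50. A56 gained 20.2 mutations per 10000 reads, U57 15.4, U54 13.6, U53 12.4 and G50 11.6, followed by C75 with 10.1. A56 had the largest such rise of all 287 measured nucleotides. At G50 the SDA replicates gained 13.9 and 9.40 on a control rate of 0.894%, which did not pass as a ratio (uncentred log2 ratio 0.18, edgeR adjusted p = 0.100), although each SDA library alone passed against the control (exact binomial tests, adjusted p = 2.95e-05 and 0.00635). The 4 others lie in the apical loop and passed as ratios too. Differences of rates were not tested.

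**Figure D4:**
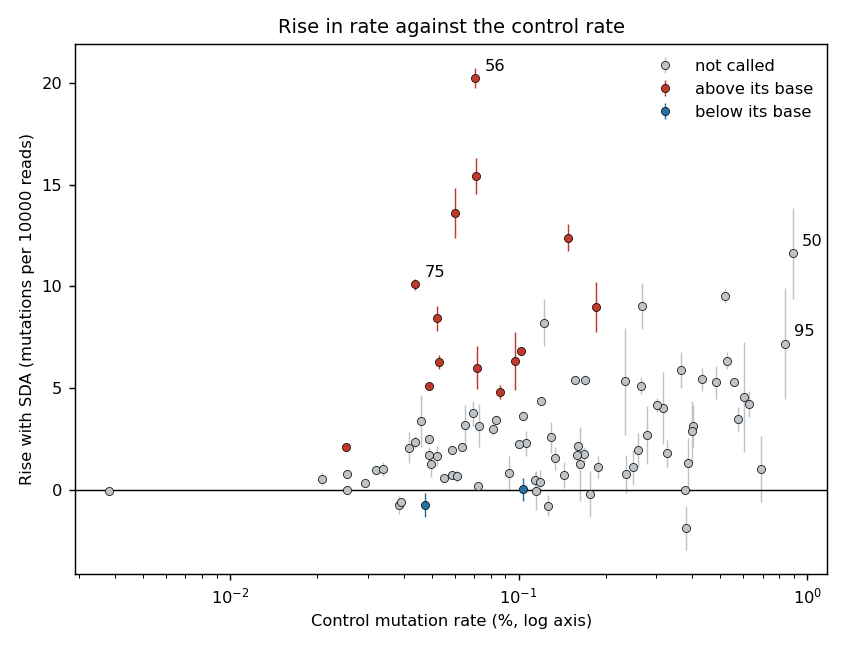
Rise in mutation rate with SDA (mutations per 10000 reads, mean of both SDA libraries; bars give their range) against the control rate (percent, log axis) for the 91 nucleotides of SL1. A56, U57, U54 and U53 reach 12.4 to 20.2 from control rates at or below 0.148%, whereas G50 reaches 11.6 from 0.894%.

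Predicted secondary structure depended on how SL1 was folded. RNAfold, given the measured 91 nucleotides alone and no protein, gave a structure of -25.0 kcal/mol in which 1 of the 8 GAUC nucleotides was paired. A structure with the motifs held paired, as HEXIM recognises them, had nearly the same energy, -24.9 kcal/mol, and differed in pairing state at 18 of the 91 nucleotides. The second structure was added after the values had been seen, and both serve as description only.

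In the structure with the motifs held paired, 16 nucleotides of the distal arm were unpaired (8 U, 4 A, 2 C and 2 G). Of these, 10 were above their base, beside 9.41% over the RNA, and 1, A34, below, beside 3.83%. Among the 48 paired nucleotides, 1 was above, U58 at the closing end of the loop, and 1 below, A25. The mean centred log2 ratio was higher in the unpaired nucleotides by 0.67 ± 0.03 (SD, n = 2). Within uridines alone, 7 of the 8 unpaired ones in the arm were above their base, with a median centred log2 ratio of 0.72, and 1 of the 9 paired ones, with a median of -0.08. Over the RNA 12 of 59 uridines were. Those 7 include U40, U41, U53, U54, U57 and U63, which belong to elements listed with earlier results known. The unpaired uridine that did not pass was U76. Unpaired nucleotides that did not rise beyond their base were A34, A49, G52, C71, U76 and A77. In the fold of lowest energy, 6 of 18 unpaired and 5 of 46 paired nucleotides of the distal arm were above their base, and the means differed by 0.25 ± 0.03 (SD, n = 2). All 27 nucleotides of the basal stem were unpaired in either structure, but both structures lack the nucleotides before position 19. Folded from the first nucleotide, 62 SL1 nucleotides were paired, against 46 in SL1 alone. In that fold part of the basal stem paired with the nucleotides before position 19, such as C100 with position 7. Over the whole of SL1 the means differed by 0.30 with the motifs held paired and by 0.091 in the fold of lowest energy. Both values count the whole basal stem as unpaired.

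**Figure D5:**
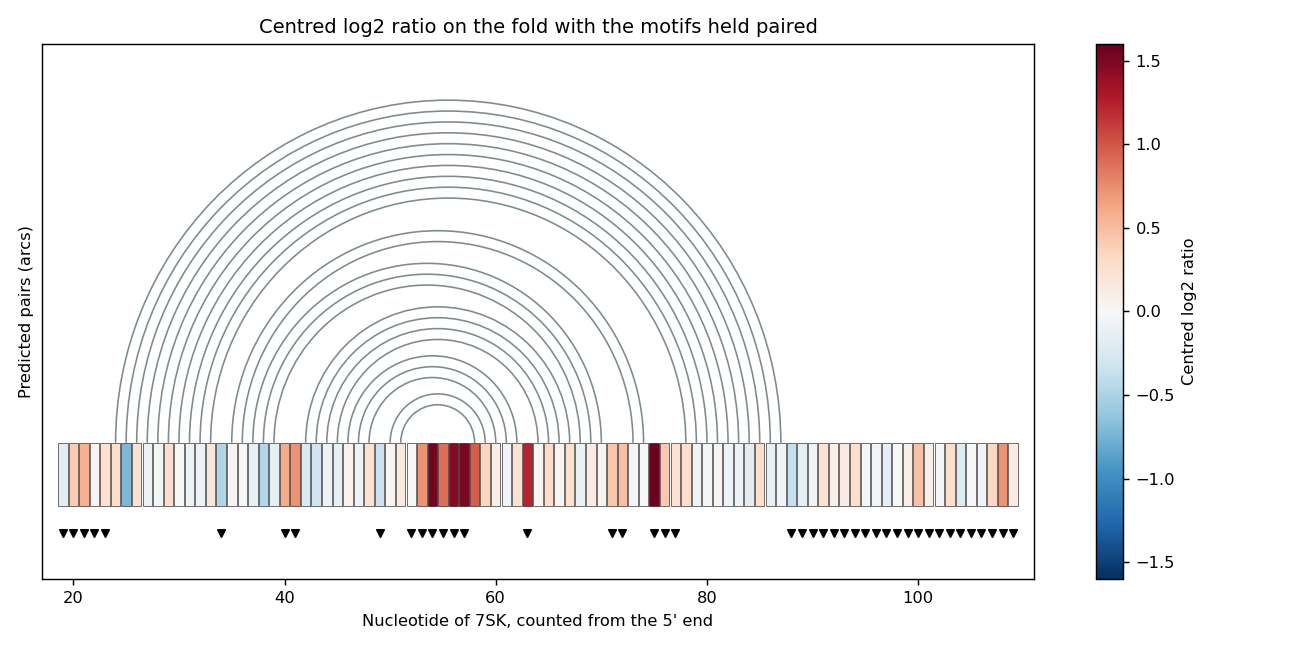
Predicted base pairs of SL1 with the GAUC motifs held paired (arcs join paired positions, triangles mark unpaired nucleotides) and the centred log2 ratio of each nucleotide (colour), against position along the RNA. By the edgeR calls, which the colours do not show, 10 of the 16 unpaired nucleotides of the distal arm are above their base. Of its 48 paired nucleotides 1 is, beside 9.41% over the RNA.

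Set against each other, the SDA libraries passed Fisher's exact test at 0 of 91 SL1 nucleotides after adjustment, against 0.697% over the RNA, and 5 had an unadjusted p under 0.05. The lowest adjusted p was 0.148, at G51, where the rate in replicate 1 was 1.20 times that in replicate 2. Over all 91 the libraries differed with a chi-square of 115.

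In the authors' deposited tables, SL1 holds 17 sites in each SDA replicate, where the share over the RNA is 16.4% in replicate 1 and 12.9% in replicate 2. They share 13: U21, U40, U41, U53 to U58, U63, U72, C75 and A77. These 13 are among 91 nucleotides, and over the RNA 10.8% of nucleotides are shared sites. Among the 14 nucleotides above their base, 12 are such shared sites, C20 is a site in replicate 2 alone and C108 in neither. A77 is the shared site that was not above its base. The authors' deposited ratio of SDA to control at A56 is 3.93 and 3.79 in replicates 1 and 2, at U54 3.45 and 3.05, at C75 3.37 and 3.24, and at U63 2.74 and 2.50. Both tables use the same control, so the agreement of the site lists is not that of independent experiments.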

How the data were processed

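Mutations were counted per nucleotide of 7SK in 2 SDA libraries and 1 control. Per the file headers, the authors deposited counts of mutations, reads, effective reads and off-target reads, a rate as a fraction (equal to mutations over effective depth within 4.98e-07), a ratio of SDA to control, a Z-factor score, a site call of 0 or 1 and thresholds. The aligner, caller and genome build were not given in the sources used here. No genomic coordinates are printed. The RefSeq table of GRCh38.p14 lists 293 RN7SK pseudogenes, and their share of reads was not tested. Each table's modified columns were matched through its name to 1 SDA replicate and its untreated columns to the control. A further 8 per-sample columns were not used.

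edgeR 4.0.16 (R 4.3.3; glmQLFit, two-sided, log effective depth as offset, at least 1 mutation in all, dispersion 0.00178, 1 residual degree of freedom) was fitted on all 287 nucleotides. Centring added the base median (pseudocount 0.5) to the SDA offsets. SEs were derived from the p-values. DESeq2 1.42.0, RNAfold 2.7.2 and Python 3.11.15 (exact tests, Clopper-Pearson intervals at 95%) were also used. Scripts were tested on simulated data. As PCR reads carry no molecular identifiers here, intervals and limits express counting error alone. Members and lists were chosen with earlier results of these data known. Named were the listed elements, U30, every nucleotide past the centred or the replicate test, shared sites, the 5 highest control rates and the 5 largest rises; other nucleotides (G51, G52, C59, C71, G74, U76, A49, G19, G83 to G85, and those that single libraries alone called) were chosen after their values were seen.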

Additional observations from a re-analysis of the deposited data

Results flagged for a closer look

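Over SL1, off-target reads, which enter no comparison above, took a median of 0.106% of read depth in SDA replicate 1. The share was 0.0938% for SDA replicate 2, and the control had 0.0775%. The control is a single library, so this difference cannot be set against a spread between controls. The bearing of these reads on the SL1 rates was not tested.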

How the results depend on the processing

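No paired analysis was possible because the control is a single library with no replicate number. Among nucleotides above the control without centring (32 in SL1), DESeq2 gave 11, read depth 11 and TMM 16. Above their base (14), DESeq2 left 7 and read depth 8, and U54, G55, A56, U57, U58, U63 and C75 passed under all 11 alternatives. The distal arm kept 7 of 11 with DESeq2. The basal stem kept 0 of 3 with DESeq2, read depth or each library on its own base medians, the last of these added after seeing the data, and held 3 to 6 with 1 SDA library left out. Of 2 below their base, DESeq2, read depth, TMM and own base medians left 0, centring on all nucleotides gave 1, and leaving out an SDA library gave 4 to 5. Those single-library results are exact binomial tests, which compare libraries and hold no spread between them. The apical loop mean (1.18) was 1.16 with a pseudocount of 5 and 1.21 when centred on all nucleotides. The GAUC mean (-0.019) turned to 0.0015 with read depth, 0.041 when centred on all nucleotides, 1.36 mutations per 10000 reads as a rate difference, and -0.044 to 0.0058 with 1 SDA library left out. The distal minus basal difference (0.08) was 0.039 with the arm from 22 to 89 and 0.14 from 26 to 85. The unpaired minus paired difference (0.09) was 0.13 with the whole RNA folded, 0.29 with a pairing probability of at least 0.5, and, both added after seeing the data, 0.19 folded from the first nucleotide and 0.30 with GAUC held paired. Authors' shared sites fell from 13 to 5 at ratios of at least 1.5 times the threshold. The cause of these changes was not tested. With 1 control, its own spread is not measured, and depth limits low rates such as C45 (SE 0.24).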
